A study of Mus musculus with 8 samples.

Results

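The miRNAs described here are passenger strands, written with an asterisk in the naming used by the array, each set beside the guide strand that bears the same name without the asterisk. Members were taken from the probe annotation by name alone: mouse miRNAs ending in an asterisk whose number lies under 296 or over 770, leaving out the numbers 21, 30, 127, 134, 136, 154, 199, 214, 1193 and 1197. The rule gave 62 of the 611 mouse miRNAs on the array, and no measured value entered it. For 55 of them the array also holds the guide, and for the other 7 (miR-125b*, miR-181a-1*, miR-181a-2*, miR-218-1*, miR-218-2*, miR-24-1* and miR-24-2*) it holds no guide of exactly that name. Lung RNA of female C57BL/6 mice was hybridised to 8 one-colour arrays, 1 sample to each. The 4 vehicle control samples come from dams given nanopure water, and the 4 Printex 90 samples from dams given carbon black nanoparticles in that vehicle. Instillation into the trachea took place on 4 days of gestation (7, 10, 15, then 18) with 0.067 mg each time, 0.268 mg in total, and the lungs were taken at weaning, 26 to 27 days after exposure. All 8 samples therefore come from dams instilled during pregnancy, and neither animals without instillation nor animals never pregnant are among them.

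Most miRNA hairpins are cut by Drosha in the nucleus and by Dicer in the cytoplasm into a short duplex. As a rule 1 strand of that duplex, the guide, is loaded into an Argonaute protein and pairs through its seed (bases 2 to 8) with target mRNAs, while the passenger strand is released and degraded. Which strand is kept is known to depend on the stability of the duplex ends and on the first base, with a preference for uridine, and for some hairpins both strands are used. The asterisk was given to the strand found less often when the hairpin was first described, and current names give the arm (5p or 3p) instead.

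The strands below are those on which the results turn: the strands detected on more arrays than their guides, the pairs with the smallest p-values for a change of the ratio between strands, the passengers that varied with their guides, and a pair of passengers that share a seed. Seeds are in capitals, and the sequences are those of RefSeq on GRCm38.p6.
miR-877*: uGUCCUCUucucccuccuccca
miR-877: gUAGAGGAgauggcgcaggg
miR-17*: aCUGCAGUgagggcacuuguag
miR-17: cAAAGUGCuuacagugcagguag
miR-33*: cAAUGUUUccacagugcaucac
miR-33: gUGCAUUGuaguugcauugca
miR-872*: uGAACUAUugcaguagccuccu
miR-872: aAGGUUACuuguuaguucagg
miR-7a*: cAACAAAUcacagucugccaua
miR-7a: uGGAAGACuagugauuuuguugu
miR-140*: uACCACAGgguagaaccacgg
miR-34c*: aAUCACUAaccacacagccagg
miR-29c*: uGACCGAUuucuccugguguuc
miR-29c: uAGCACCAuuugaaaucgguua
miR-24-1*: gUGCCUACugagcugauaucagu
miR-24-2*: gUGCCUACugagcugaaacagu
miR-24: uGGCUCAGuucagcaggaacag

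In the RefSeq table used here, 58 of the 62 passengers were matched by their current names, and both strands were matched for 55 hairpins. These are not the same set as the 55 pairs held by the array. Members without a guide of exactly that name on the array are included. The pairs of miR-140, miR-34c, miR-124, miR-133a, miR-145, miR-150 and miR-19a are missing. The guides miR-181a, miR-218 and miR-24 are counted once for each of their passengers. In the 55 hairpins matched by sequence, the guide began with U in 32 and the passenger in 7. Over the first 4 bases the guide held more A and U than the passenger in 30 hairpins, the same number in 16 and fewer in 9. The median GC content was 50% for the passengers and 42.9% for the guides. Of the 13 hairpins among them whose passenger was detected on at least 4 arrays, the guide began with U in 8 and the passenger in 3. Of the other 42, the guide began with U in 24 and the passenger in 4. The seed is shared within 3 pairs of members: miR-24-1* and miR-24-2* (UGCCUAC), miR-17* and miR-20b* (CUGCAGU), and miR-200a* and miR-200b* (AUCUUAC).

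Several of these hairpins lie inside larger genes. On GRCm38.p6, miR-33* is at chr15:82198167-82198188 on the plus strand, within Srebf2, which encodes a transcription factor of cholesterol synthesis. miR-872* is at chr4:94665206-94665227 on the plus strand within Ift74, a gene of transport in cilia, and miR-877* is at chr17:35960731-35960752 on the minus strand within Abcf1. miR-140* is at chr8:107551288-107551308 on the plus strand within Wwp2, miR-7a* is at chr13:58392800-58392821 on the minus strand within Hnrnpk, and miR-34c* is at chr9:51103044-51103065 on the minus strand within Btg4 and Hoatz. miR-15a* and miR-16* lie within the long noncoding RNA Dleu2 and miR-22* within Mir22hg, and no larger gene overlapped miR-17*, miR-18a*, miR-24-2* or miR-29b*.

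Passenger strands were detected in these lungs far less often than their guides. Detection on an array means that, for 1 or more probes of the strand, no fewer than 50% of the spots in use were marked well above background. Of the 62 members, 12 were detected on all 8 arrays (19.4%, against 39.3% of all 611 mouse miRNAs), 15 on at least 4 arrays (24.2%, against 43.9%), 5 on 1 to 3 arrays and 42 on none. Of the 55 guides, 42 were detected on all 8 arrays (76.4%), 44 on at least 4 (80.0%) and 11 on none. The 53 asterisk strands outside the rule gave 19 on all 8 arrays (35.8%) and 24 on at least 4 (45.3%). The 12 members detected everywhere were miR-140*, miR-15a*, miR-16*, miR-17*, miR-18a*, miR-22*, miR-24-1*, miR-24-2*, miR-29c*, miR-34c*, miR-7a* and miR-877*. These are counts of strands past a detection rule and have no test across samples. The same rule also passed 3 of the 39 viral miRNAs on each array, or 4 on Printex 90 replicate 2.

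Counted by pair, with detection on at least 4 arrays as the criterion, both strands were found in 12 of the 55 pairs, the guide alone in 32, the passenger alone in 1 and neither in 10. In 27 pairs the guide was detected on all 8 arrays and the passenger on none. The passenger was detected on more arrays than its guide in 2 pairs. miR-877*, whose sequence is given above, was detected on all 8 arrays and miR-877 on none, and miR-17* was detected on 8 arrays against 6 for miR-17. Neither strand passed for miR-124, miR-135a, miR-138, miR-191, miR-196a, miR-293, miR-295, miR-879, miR-881 or miR-9. miR-124 and miR-9 are miRNAs of neurons.

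**Figure D1:**
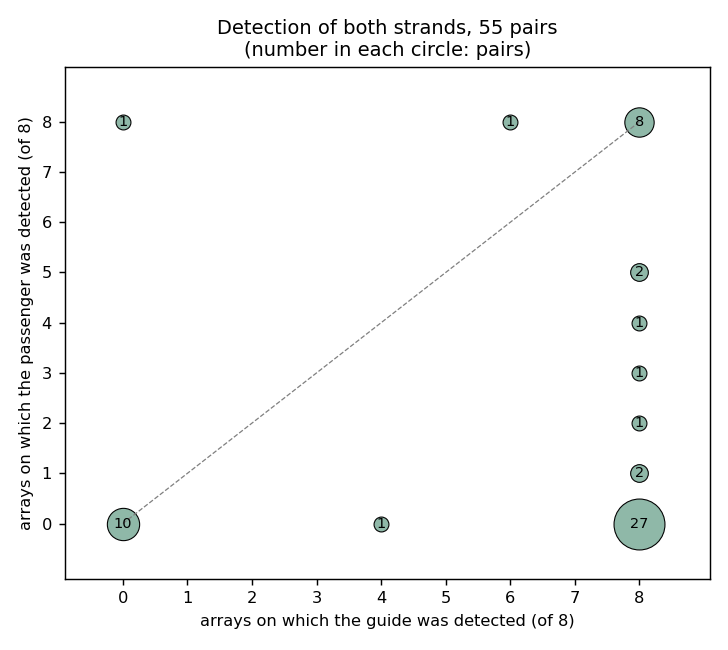
Number of the 8 arrays on which the guide (horizontal axis) and the passenger (vertical axis) of each of the 55 pairs were detected, with the circle area standing for the number of pairs. The most filled point is where the guide was found on 8 arrays and the passenger on 0 (27 pairs), and 2 lie above the diagonal.

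Members detected per array numbered 16, 14, 14 and 20 in the vehicle controls and 12, 18, 13 and 13 after Printex 90, against 44, 43, 43 and 44 and then 42, 44, 42 and 44 for the guides. The passenger counts overlapped between the groups, and the highest came from vehicle control replicate 4, one of the arrays with the most mouse miRNAs detected (283, against 248 on Printex 90 replicate 3, the lowest). Detection of miR-33* differed most between the groups: it was found on all 4 control arrays and on 1 Printex 90 array, replicate 2. miR-872* was found on 3 control and 2 Printex 90 arrays, and miR-29b* on 2 of each. miR-10a* was found on 2 arrays, miR-141* and miR-181a-1* on 3, and miR-186* and miR-200b* on 1.

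Levels are given as the processed signal of a strand divided by the array's 75th percentile over mouse miRNAs detected on all arrays. Each strand has its own probes, so a signal can be followed across arrays, but a passenger's signal cannot be read as an amount against that of its guide or of another strand. The signal of miR-877* was 0.581, 0.687, 0.725 and 0.543 in vehicle control replicates 1 to 4 and 0.637, 0.618, 0.566 and 0.524 in Printex 90 replicates 1 to 4. The groups overlapped, with control means of 0.634 ± 0.0860 and Printex 90 means of 0.586 ± 0.0511 (SD, n = 4 each). For miR-140*, a strand known from cartilage and now regarded as the more abundant arm in many tissues, the signal was 0.546, 0.520, 0.566 and 0.478 in the controls and 0.731, 0.471, 0.524 and 0.495 after Printex 90. Printex 90 replicate 1 stood highest, and the other 3 Printex 90 arrays lay within or just below the control range. The means were 0.527 ± 0.0377 and 0.555 ± 0.119 (SD, n = 4 each).

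By the median, signals over the 8 arrays varied by similar factors in members, miR-877* and miR-140* included, in guides and in other mouse miRNAs. The highest array exceeded the lowest by a median factor of 1.30 (1.18 to 1.55) over the 12 members detected on all arrays, by 1.26 (1.09 to 10.9) over 42 guides and by 1.31 over 228 other mouse miRNAs. Of the 39 miRNAs of viruses that the array also carries, the brightest, mghv-miR-M1-2 of a mouse herpesvirus, gave signals of 0.204 to 0.270 on these arrays. miR-877* and miR-140* lay above that range on every array, and the other 13 members detected on at least 4 arrays did not. Whether part of a member's signal comes from RNA other than its own strand was not tested.

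**Figure D2:**
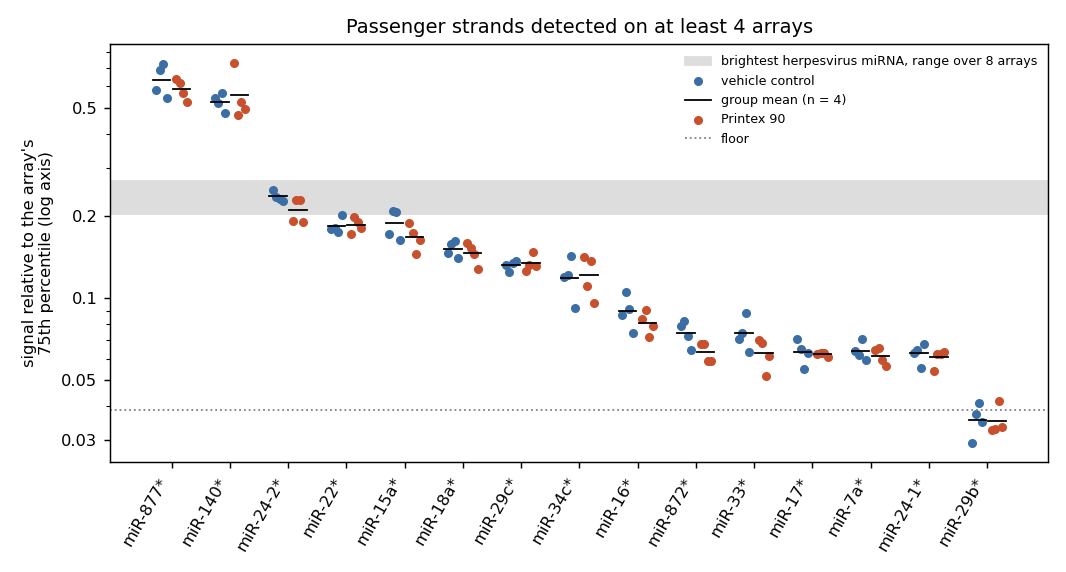
Signal relative to each array's 75th percentile (log axis) for the 15 passenger strands detected on at least 4 arrays, with 1 point per array, coloured by group. The shaded band is the range of the viral probe signal, 0.204 to 0.270, and the dotted line the floor of 0.0388. The control and Printex 90 points overlap for all 15.

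The study's comparison asks whether the lung of the dams still differed at weaning after repeated instillation of the particles. No passenger strand passed the test: 0 of the 15 members tested had an adjusted p under 0.05, and neither did any of the 268 mouse miRNAs tested (0%; limma, Benjamini-Hochberg over the 268). At an unadjusted p under 0.05 there was 1 member, miR-872*, and 15 of the 268 (5.6%), 7 of them lower (2.61%, against 1 member). The median log2 difference, Printex 90 minus vehicle control, was -0.06 over the 15 members (-0.24 to 0.05), with 10 lower and 5 higher. Over all 268 the median was -0.05, with 65.7% lower and 31.7% higher. The balance of the members moved with the processing: 13 of the 15 were higher with normexp (median 0.06, all tested 0.04) and 8 of 15 in the authors' deposited table, while all 15 were lower without scaling. The members' median was 0 with the floor doubled and -0.02 without Printex 90 replicate 4. The normexp offset of 50 and the doubled floor compress weak signals, so differences of weak strands there are partly fixed by the setting. The 10 lower members include miR-33*, which met the detection filter mainly through its control arrays. Over 44 guides the median was -0.01, with 24 lower and 20 higher, and over the 24 other asterisk strands it was -0.12. The groups overlapped for every member, whereas they did not for 1.49% of the 268.

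The member with the smallest p was miR-872*, the other strand of a hairpin in the cilia gene Ift74. Its signal was 0.0789, 0.0825, 0.0727 and 0.0642 in the controls and 0.0676, 0.0676, 0.0587 and 0.0589 after Printex 90. The 2 lowest arrays were Printex 90 arrays, but control replicate 4 lay below Printex 90 replicates 1 and 2. The log2 difference was -0.24 (SE 0.09, 95% interval -0.45 to -0.02), and the limma adjusted p was 0.706. With background corrected by normexp the sign turned, to 0.05, and the difference was -0.03 with the mean of probes, -0.03 with the floor doubled and -0.05 in the authors' deposited table. None of its probes was well above background on all 8 arrays. At so weak a signal the normexp, doubled-floor and mean-of-probes values are partly fixed by the setting.

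miR-33*, the passenger of a guide known to repress cholesterol export, had signals of 0.0710, 0.0745, 0.0879 and 0.0634 in the controls and 0.0704, 0.0687, 0.0518 and 0.0615 after Printex 90. Its means were 0.0742 ± 0.0102 and 0.0631 ± 0.00845 (SD, n = 4 each), a log2 difference of -0.23 (SE 0.13) with a limma adjusted p of 0.706. miR-33* met the detection filter through its 4 control arrays and only 1 Printex 90 array, so these values are given as a description. Printex 90 replicates 3 and 4 lay below every control, and replicates 1 and 2 lay within the control range. With normexp this sign turned as well, to 0.06, and the difference was -0.03 with the mean of probes, -0.04 with the floor doubled and -0.04 in the authors' deposited table. At so weak a signal the normexp, doubled-floor and mean-of-probes values are partly fixed by the setting. The difference was -0.14 without Printex 90 replicate 3 and -0.15 without vehicle control replicate 3.

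The miR-23/27/24 clusters, whose guides are abundant in vessel walls, gave 2 tested passengers, and these share the seed printed above. miR-24-2* gave 0.250, 0.236, 0.232 and 0.227 in the controls and 0.192, 0.228, 0.230 and 0.191 after Printex 90. Printex 90 replicates 1 and 4 lay below every control, and replicates 2 and 3 lay within the control range. The log2 difference was -0.17 (SE 0.08, limma adjusted p 0.706), but -0.01 after quantile normalization, -0.02 in the authors' deposited table and -0.03 with normexp. For miR-24-1*, from the second copy of the hairpin, it was -0.05 (SE 0.08), and it turned to 0.01 with the percentile taken over all mouse miRNAs. The single guide sequence made by both hairpins, miR-24, had a log2 difference of -0.09 (SE 0.06).

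Among the passengers of the miR-17 cluster and its paralogs, whose guides drive proliferation, 2 of 8 were tested, with log2 differences of -0.06 for miR-18a* and -0.02 for miR-17*, while all 8 guides were tested. The passengers of the cell cycle brakes miR-15a and miR-16 were 2 of 3 tested, at -0.16 (SE 0.11) for miR-15a* and -0.13 (SE 0.12) for miR-16*. Signals of miR-15a* were 0.173, 0.209, 0.207 and 0.163 in the controls and 0.189, 0.174, 0.146 and 0.163 after Printex 90, and the groups overlapped, with Printex 90 replicate 3 the lowest array. The collagen-repressing miR-29 family also gave 2 of 3, at 0.02 (SE 0.05) for miR-29c* and 0.01 (SE 0.04) for miR-29b*, the latter with 6 arrays at the floor. Without Printex 90 replicate 3, miR-15a* was at -0.10 and miR-16* at -0.08, and miR-16* was at -0.05 without vehicle control replicate 2 and -0.22 without vehicle control replicate 4. None of these 6 passengers had an unadjusted p under 0.05.

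Of 8 passengers of epithelial miRNAs, only miR-34c*, whose guide is typical of ciliated cells, was tested, at 0.03 (SE 0.17), and all 8 of their guides were tested. Of 6 passengers of miRNAs of leukocytes and inflammation, only miR-22* was tested, at 0.01 (SE 0.06). The 3 passengers of smooth muscle and vessel miRNAs (miR-145*, miR-130b* and miR-26b*), the 5 of neural miRNAs and the 1 of striated muscle, miR-133a*, were not. Members in no such list included miR-7a* at -0.06 (SE 0.07), miR-877* at -0.11 (SE 0.11) and miR-140* at 0.05 (SE 0.14). Signs of differences this small depended on the scaling: without any scaling between arrays, miR-140*, miR-22*, miR-29b*, miR-29c* and miR-34c* were lower after Printex 90, at -0.02 to -0.06, where the median of all tested miRNAs stood at -0.12.

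**Figure D3:**
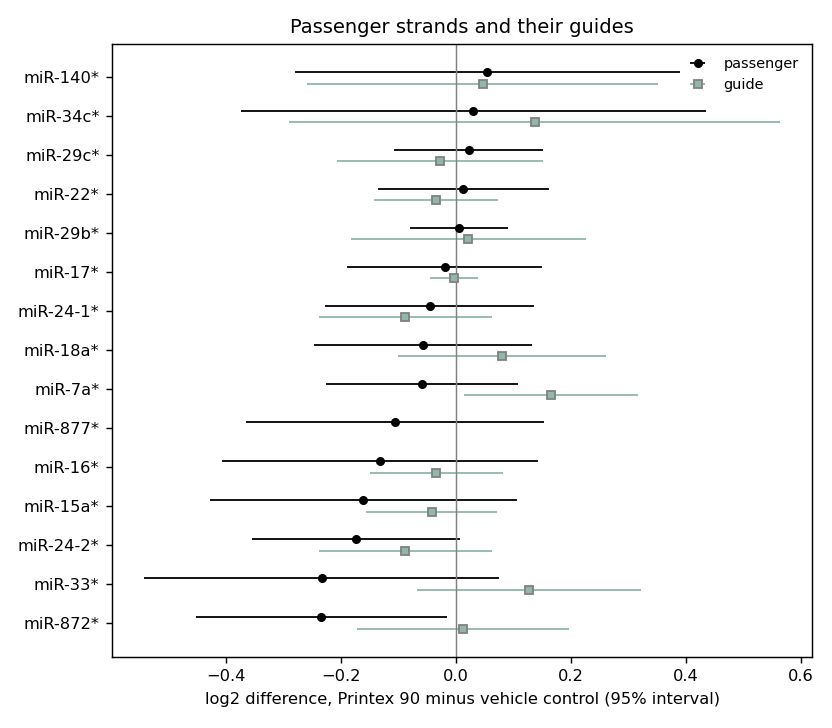
Log2 difference, Printex 90 minus vehicle control, with 95% intervals, for each tested passenger strand and, where tested, its guide. Only the intervals of miR-872* (-0.45 to -0.02) and of the guide miR-7a (0.01 to 0.32) leave out 0, and neither passed after adjustment.

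The ratio of passenger to guide on the same array does not change when an array is scaled by a constant, apart from values at the floor. This ratio could be fitted for 26 pairs on the array, 12 of them members. The guide sequences miR-7a, miR-16 and miR-29b are each made by 2 hairpins and their passengers by 1. A change in those ratios therefore cannot be placed on a single hairpin. No member pair passed an adjusted p of 0.05, and none of the 26 did (0%; limma), while 3 member pairs and 15.4% of all 26 had an unadjusted p under 0.05. The passenger was lower against its guide after Printex 90 in 9 of the 12 member pairs and in 61.5% of all 26. The 9 include miR-17, whose guide lay under the floor on 7 arrays, and miR-29b, whose passenger was at the floor on 6. With normexp the passenger was lower in 5 of the 12, and in the authors' deposited table in 6. The median log2 ratio difference was -0.10 over the members, but -0.02 without Printex 90 replicate 3, -0.03 without vehicle control replicate 2, -0.06 without vehicle control replicate 3, -0.03 with the mean of probes and 0.02 with normexp. It was -0.01 over the 14 other pairs, and the difference from these was not tested.

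The miR-33 pair had the smallest p, but miR-33* met the detection filter through its 4 control arrays and only 1 Printex 90 array, so the choice of this pair for the fit was not free of the group difference, and its values are given as a description. The log2 ratio of miR-33* to miR-33 was 0.10, 0.29, 0.25 and 0.18 in the controls and -0.04, 0.02, -0.47 and -0.15 after Printex 90. Every Printex 90 array lay below every control array. The groups did not overlap, in either direction, for 7.69% of the 26 pairs. The difference was -0.36 (SE 0.10, 95% interval -0.59 to -0.13), a ratio 0.778 times that of the controls, with a limma adjusted p of 0.171. The guide itself gave 0.0664, 0.0611, 0.0738 and 0.0562 in the controls and 0.0723, 0.0679, 0.0716 and 0.0681 after Printex 90, groups that overlapped, at a log2 difference of 0.13 (SE 0.08).

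The call for miR-33* moved with the processing. After quantile normalization the ratio difference was -0.38 with an adjusted p of 0.0337, past the threshold, whereas it was -0.04 with normexp, -0.04 with the floor doubled, -0.09 with the mean of probes and -0.11 in the authors' deposited value table. Over all alternatives the adjusted p ran from 0.0337 to 0.862. Without Printex 90 replicate 3 it was -0.26. None of the probes of miR-33* was well above background on all 8 arrays. At such a signal the normexp, doubled-floor and mean-of-probes values are partly fixed by the setting.

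The next pairs were miR-872 and miR-7a. The log2 ratio of miR-872* to miR-872 was -0.41, -0.33, -0.58 and -0.52 in the controls and -0.65, -0.54, -0.97 and -0.67 after Printex 90. Only Printex 90 replicate 2 lay within the control range, and the difference was -0.25 (SE 0.10, limma adjusted p 0.212). For miR-7a* to miR-7a, it was 0.03, -0.14, 0.19 and -0.14 in the controls and -0.33, -0.13, -0.24 and -0.25 after Printex 90, again with replicate 2 alone within the control range. That difference was -0.23 (SE 0.08, limma adjusted p 0.212), while the guide alone, known from endocrine and neural cells, had a log2 difference of 0.17 (SE 0.06, limma adjusted p 0.706). Over the alternatives, the value nearest 0 was -0.02 for each of these ratio differences.

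**Figure D4:**
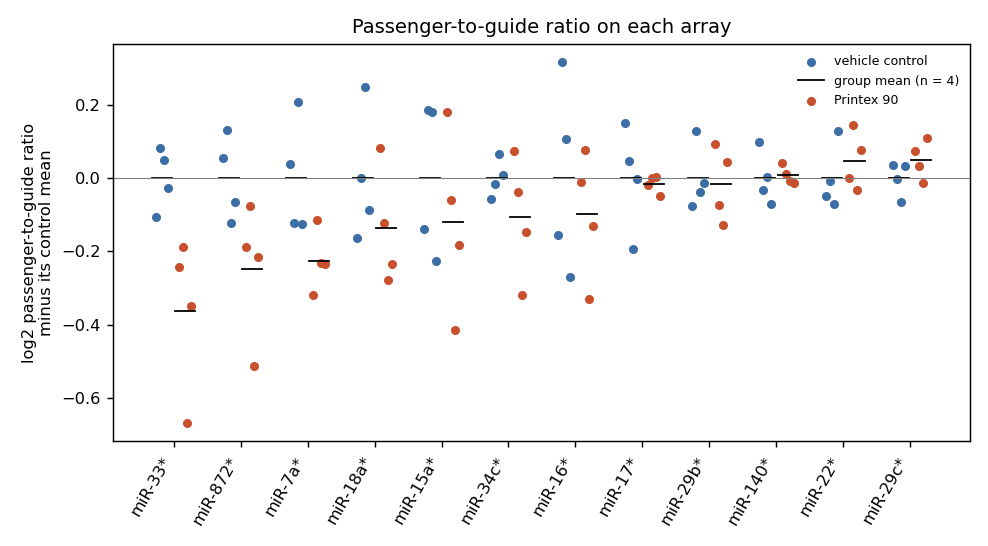
Log2 ratio of passenger to guide on each array, minus the mean of the 4 control arrays, for the 12 member pairs that could be fitted. The 4 Printex 90 arrays lie below the 4 control arrays for miR-33 only, and for the other 11 pairs the groups overlap.

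Both strands were detected on all 8 arrays in 8 pairs, and these were followed across arrays regardless of group. In 3 of the 8, passenger and guide varied together past an adjusted p of 0.05 by Pearson's r and by Spearman's rho. Over all 16 such pairs on the array, with p adjusted over the 16, the same 3 members and 2 of the 8 other pairs passed by Pearson's r (31.2% of the 16; exact permutation test). The median r was 0.17 over the members and 0.17 over the others, and all these signals share the array and its scaling. miR-140* and its guide gave r = 0.97 (exact permutation test, adjusted p 0.00714 over the 8 pairs) and rho = 0.88 (adjusted 0.0193). On both strands Printex 90 replicate 1 was highest, at 0.731 for the passenger and 0.658 for the guide, and replicate 2 lowest, at 0.471 and 0.433. Without these 2 arrays r was 0.77 (exact permutation p 0.0778), so the call rests on them. The summed signal of the striated muscle miRNAs was also highest on Printex 90 replicate 1 (3.05, against 0.313 to 1.91 on the other arrays); its part in this relation was not tested.

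The miR-34c pair gave r = 0.88 (adjusted exact permutation p 0.00714) and rho = 0.90. Signals of miR-34c* were 0.119, 0.122, 0.142 and 0.0921 in the controls and 0.142, 0.111, 0.136 and 0.0962 after Printex 90. Replicate 4 was the lowest of each group for both strands. Without the 2 arrays farthest from the guide's median, r was 0.99 (exact permutation p 0.00417), but without scaling between arrays it was 0.57 (adjusted p 0.282). The summed epithelial markers were highest on Printex 90 replicate 3 (9.14), where the guide miR-34c was also highest (2.38), and lowest on vehicle control replicate 4 (7.32), where the guide was lowest (1.28); their part was not tested.

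miR-29c* and miR-29c gave r = 0.88 (adjusted exact permutation p 0.00919) and rho = 0.88. Both strands were highest on Printex 90 replicate 3, at 0.147 and 8.58. This relation fell below the threshold after quantile normalization (r = 0.34) and in the authors' deposited value table (r = 0.10), and without 2 arrays it was 0.76 (exact permutation p 0.103). For the other 5 pairs r was 0.42 for miR-22, -0.08 for miR-7a, -0.15 for miR-18a, -0.39 for miR-16 and -0.53 for miR-15a, none past the threshold. With the group means subtracted, the miR-15a pair moved to r = -0.84 (adjusted exact permutation p 0.00344), and without scaling it turned to 0.34. Without scaling the miR-22 pair reached 0.95 (adjusted exact permutation p 8.93e-04), and after quantile normalization it turned to -0.66.

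**Figure D5:**
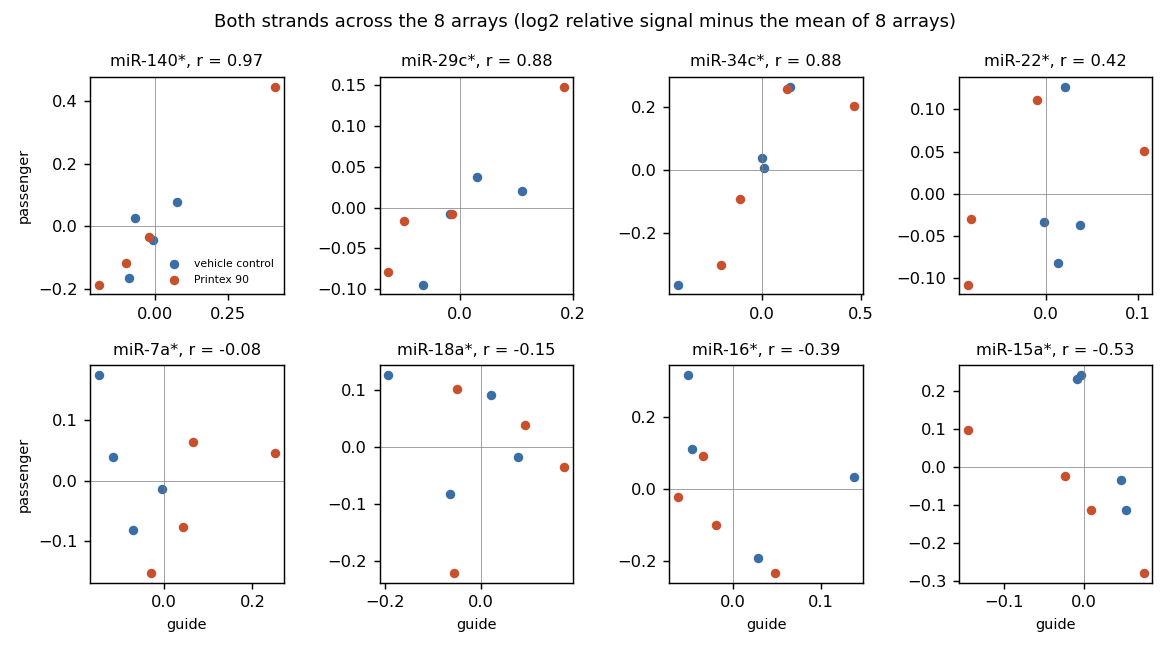
Log2 signal of the passenger against that of its guide on the 8 arrays, 1 panel per pair, with points coloured by group. The points rise together for miR-140 (r = 0.97), miR-29c (0.88) and miR-34c (0.88), and show no such line in the other 5 panels.

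Limits that touch all of these values lie in the arrays themselves. The 75th percentile before scaling was 581 to 805, and detection ranged from 248 to 283 mouse miRNAs an array. The markers of endothelium (2 of 2), epithelium (5 of 5), smooth muscle and mesenchyme (4 of 4), leukocytes (4 of 4) and red cells (3 of 3) were detected on all 8 arrays, while miR-124 and miR-9 were detected on none. The striated muscle miRNAs summed to 0.380 to 1.91 in the controls and 0.313 to 3.05 after Printex 90, and the liver miRNA miR-122 to 0.0269 to 0.303 and 0.0172 to 0.439. Slide row 1 held every control array and row 2 every Printex 90 array, and the effects of row and treatment cannot be told apart. In whole lung, fewer cells of a type and less RNA per cell cannot be told apart either.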

How the data were processed

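Lung RNA on 8 Cy3 arrays was used, grouped by the treatment in the labels, which do not say that each is a separate mouse; p-values then measure the spread between these samples. Per the file headers, the deposited spot intensity was written by version 10.7.3.1 of Agilent's Feature Extraction (grid 021828), background-subtracted within each array and not normalized between arrays, with flags per spot. Values in the authors' deposited table are on a log2 scale; how they were made, and which genome build and miRBase release the array follows, was not given in these sources. Control spots and outlier flags (2.25% to 2.76% of 13000 spots) were left out. Spots of a probe were averaged, probes of a miRNA summed, divided by the array's 75th percentile over 240 mouse miRNAs detected on all 8 arrays, floored at 0.0388 and taken to log2. limma 3.58.1 in R 4.3.3 was applied to 268 mouse miRNAs (detection on 4 or more arrays), and separately to the log2 ratio of passenger to guide in 26 pairs, both with Benjamini-Hochberg adjustment at 0.05. Correlations used exact permutation of all 40320 pairings (numpy 2.4.6). The code was tested on simulated data. Arms were matched to current names by hand. The normexp alternative (offset 50) was planned on the mean spot signal and run on the median signal and background columns, the ones the deposited files carry.

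Members, lists and tests were chosen with earlier results of these data known. Members were named by a rule: those past the threshold, those with the smallest p in each direction and in the ratio, those with the highest mean signal, those detected on more arrays than their guide or mainly in 1 group, up to 2 tested per list, and the guides of these.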

Additional observations from a re-analysis of the deposited data

Results flagged for a closer look

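Among 79 groups of 4 arrays (tested members, pair ratios and guides), 4 held an array set apart from the other 3 by more than Dixon's limit. Chance gives about 1 in 20, or 3.95 of the 79. For miR-24-1* this was Printex 90 replicate 1, low at a log2 signal of -4.21 with the next array at -4.00. For miR-29b* it was vehicle control replicate 3, at -4.60, and Printex 90 replicate 3, at -4.58, each above 3 arrays at the floor of -4.69. For the guide miR-17 it was vehicle control replicate 1, at -4.67, again above 3 arrays at the floor. With 3 arrays tied at the floor any value above it passes the limit, so the chance rate does not apply to miR-29b* and miR-17.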

How the results depend on the processing

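No member passed an adjusted p of 0.05 alone under any of the 23 alternatives, and of 614 values of members 547 kept direction and side, 5 became exactly 0 with the floor doubled (miR-17*, miR-24-1*, miR-29b*, miR-7a* and the miR-17 ratio), 61 changed direction and 1 (the miR-33 ratio) crossed the threshold. Many of the 547 could not change direction. Other detection filters, limma's trend and robust options, the replicate block and dropping miRNAs always at the floor leave each difference as it was. Scaling likewise cannot change a ratio whose values lie above the floor. The cause was not tested for any of these changes, though the normexp offset, the doubled floor and the mean of probes compress weak signals by design. For the mean of probes, each probe was held at a floor before averaging. Counts of pairs past the threshold rose from 0 to 1 with quantile normalization (miR-33*), and to 1 with the mean of probes, the doubled floor and the authors' deposited table (in these 3, miR-21*, not a member). Leaving out 1 array gave 0 to 3 single miRNAs past the threshold, the 3 without Printex 90 replicate 3 (miR-21, miR-146b and miR-135b). With the percentile over all mouse miRNAs, the differences that turned were miR-17* 0.032, miR-24-1* 0.0063 and miR-17 ratio 0.032. Without scaling, the differences that turned were miR-140* -0.016, miR-22* -0.058, miR-29b* -0.017, miR-29c* -0.049, miR-34c* -0.040 and miR-29b ratio 0.032. With normexp, the differences that turned were miR-15a* 0.030, miR-16* 0.044, miR-17* 0.064, miR-18a* 0.051, miR-24-1* 0.054, miR-33* 0.064, miR-7a* 0.060, miR-872* 0.049, miR-15a ratio 0.031, miR-16 ratio 0.035, miR-17 ratio 0.054 and miR-29b ratio 0.031. With the mean of probes, the differences that turned were miR-29b* -0.00041, miR-16 ratio 0.00062 and miR-17 ratio 0.077. With the floor halved, the differences that turned were miR-29b* -0.016 and miR-17 ratio 0.23. With outlier spots kept, the difference that turned was the miR-29b ratio 0.0098. In the authors' deposited table, the differences that turned were miR-17* 0.066, miR-24-1* 0.0056, miR-7a* 0.0055, miR-16 ratio 0.055, miR-17 ratio 0.11 and miR-29b ratio 0.00051. With array weights, the differences that turned were miR-140* -0.036, miR-29b* -0.0062, miR-34c* -0.10 and miR-140 ratio -0.0028. With group means subtracted, r of the passenger with its guide became miR-7a 0.20. Without scaling, r of the passenger with its guide became miR-15a 0.34, miR-16 0.40, miR-18a 0.39 and miR-7a 0.46. After quantile normalization, r of the passenger with its guide became miR-15a 0.20 and miR-22 -0.66. In the authors' deposited table, r of the passenger with its guide became miR-15a 0.074, miR-16 0.22 and miR-7a 0.29. Leaving out each array in turn gave log2 differences from -0.085 to 0.13 for miR-140*, -0.016 to 0.041 for miR-140 ratio, -0.19 to 0.0071 for miR-16 ratio, -0.086 to 0.034 for miR-17*, -0.081 to 0.034 for miR-17 ratio, -0.10 to 0.0063 for miR-18a*, -0.022 to 0.057 for miR-22*, -0.10 to 0.0075 for miR-24-1*, -0.021 to 0.027 for miR-29b*, -0.052 to 0.027 for miR-29b ratio, -0.023 to 0.052 for miR-29c* and -0.086 to 0.14 for miR-34c*.

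Limits: the replicate numbers did not pair the samples (correlations of same-numbered arrays -0.14, -0.60, -0.38 and 0.75 over 240 miRNAs; 2 of 8 arrays correlated best with their own number), and the replicate block left 0 single miRNAs and 0 pairs past the threshold. The number of arrays limits precision, and 47 of 62 members, detected on fewer than 4 arrays, were not tested.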

Other observations

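The hairpins of miR-293, miR-294 and miR-295 belong to a cluster typical of embryonic stem cells, and of their strands only the guide miR-294 was detected, on all 8 arrays, with signals of 0.204, 0.220, 0.250 and 0.178 in the vehicle controls and 0.205, 0.205, 0.141 and 0.169 after Printex 90. These signals lay within or below the 0.204 to 0.270 of the viral miRNA mghv-miR-M1-2, and whether they come from miR-294 itself was not tested. miR-294* and both strands of miR-293 and miR-295 were detected on no array. Both strands of miR-191 were also detected on none, although the summed probes of miR-191* gave 0.038 to 0.063, under the floor on 1 array.

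The signal of the viral probe set mghv-miR-M1-2 was set against the 12 passengers detected on all 8 arrays, a comparison chosen after seeing the data. It was 0.232, 0.257, 0.265 and 0.209 in the controls and 0.270, 0.262, 0.229 and 0.204 after Printex 90. Over the 8 arrays it varied with miR-18a* (r = 0.94, rho = 0.95, adjusted exact permutation p 0.00476 over 12 relations), miR-877* (r = 0.89, rho = 0.88, adjusted exact permutation p 0.0259) and miR-7a* (r = 0.83, rho = 0.90, adjusted exact permutation p 0.0481). Without the 2 arrays farthest from the median viral signal, r was 0.92, 0.77 and 0.61. An r above 0.8 was reached by 3 of these 12 passengers (25.0%), 0 of 42 guides and 33 of all 240 mouse miRNAs detected on all arrays (13.8%). The median r was 0.60 for the passengers, -0.03 for the guides and 0.22 for all 240. Many guides were far brighter than the viral probe set (mean 16.3 for miR-29a), while most of the passengers were not. No set matched for signal was compared, so strand and signal strength cannot be told apart here. Without scaling between arrays, 4 passengers passed, with miR-15a* added (r = 0.79, adjusted exact permutation p 0.0475). In that setting an r above 0.8 was reached by 3 of the 12 passengers, 1 of 42 guides and 44 of all 240 (18.3%), whose median r was 0.40. These values share the array and its scaling.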
